A study of Mus musculus with 4 samples.

Results

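The promoters of Gpc1 and Rttn were followed in H3K4me3 HiChIP-seq of MLg cells, a mouse lung fibroblast line. These 2 members were chosen by measured values, the number of contacts in the TGFB1 library against the Control library relative to the median coding promoter, out of 21755 protein-coding promoters on chromosomes 1 to 19 and X. Values of that comparison are therefore a description. HiChIP-seq joins DNA fragments that lie close together in the nucleus by ligation, pulls down the joined DNA with an antibody, here against H3K4me3, a histone mark of active promoters, and reads both ends of each joined piece. A contact is a pair with 1 end within 10 kb of the transcription start site (TSS) and the other end 20 kb to 2 Mb away on the same chromosome, each of them mapped with a quality of 30 or more. There were 4 libraries, 1 per condition and without replicates. Control is labelled WT in the sample annotation, while the study's text describes the cells without the miR-9 antagomiR as transfected with a control antagomiR. An antagomiR is an oligonucleotide that blocks a microRNA, and both were used at 60 nM. TGFB1 cells received 5 ng/ml of human recombinant TGFB1 for 4 h. TGFB1+miR-9-LOF cells received the same TGFB1 treatment and the antagomiR against miR-9-5p, and miR-9-LOF cells the antagomiR alone. All cells were harvested 24 h after transfection, and 1 established line stands for the lung fibroblast in every condition.

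Gpc1 encodes glypican 1, a proteoglycan anchored to the cell surface whose heparan sulfate chains bind growth factors and present them to their receptors. Rttn encodes rotatin, a centriole protein needed for the later steps of building a full-length centriole. TGFB1 is the growth factor that drives fibroblasts towards a contractile, matrix-producing state, and miR-9 is a microRNA that the study follows in the nucleus. The mature miR-9-5p and the promoters that shared most pairs with the Gpc1 window are printed, since the first is what the antagomiR binds and the others are the ends that Gpc1 contacts were read against. RefSeq sequences on GRCm38.p6 were used. The same miR-9-5p is made from 3 genes, at chr3:88215613-88215635, chr13:83738821-83738843 and chr7:79505279-79505301, all on the plus strand. The miR-149 hairpin lies within an intron of Gpc1, on its strand, so its mature 5′ arm at chr1:92850381-92850403 (+) is shown beside it. Capitals mark the seed, bases 2 to 8, which the 2 microRNAs do not share.
miR-9-5p: uCUUUGGUuaucuagcuguauga
miR-149-5p: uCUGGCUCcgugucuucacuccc

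The ends of a pair lie beside MboI sites, which read GATC on both strands. The 3 promoters that shared most pairs with the Gpc1 window in Control are given from 250 bases before to 50 bases after the start, with any MboI site in capitals. They lie at chr1:92648792-92649091 (-) for Otos, which encodes an inner ear protein, chr1:92902857-92903156 (-) for Ankmy1, and chr1:92641936-92642235 (-) for Cops9, which encodes a small subunit of the COP9 signalosome. Otos has 1 site in this stretch, and Ankmy1 and Cops9 have 0. Over 32851 promoters of the same length, 48.0% hold a site.
Otos: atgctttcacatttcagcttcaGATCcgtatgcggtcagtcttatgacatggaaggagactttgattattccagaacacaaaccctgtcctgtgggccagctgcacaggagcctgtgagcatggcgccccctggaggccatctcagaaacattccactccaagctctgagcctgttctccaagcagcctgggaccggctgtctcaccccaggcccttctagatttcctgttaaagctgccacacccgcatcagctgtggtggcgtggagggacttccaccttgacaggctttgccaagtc
Ankmy1: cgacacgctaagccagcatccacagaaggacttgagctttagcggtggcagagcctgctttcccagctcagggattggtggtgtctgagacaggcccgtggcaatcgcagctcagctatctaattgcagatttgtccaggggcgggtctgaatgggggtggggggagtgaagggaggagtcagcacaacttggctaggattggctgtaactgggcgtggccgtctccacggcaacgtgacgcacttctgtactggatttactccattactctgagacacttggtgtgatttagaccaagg
Cops9: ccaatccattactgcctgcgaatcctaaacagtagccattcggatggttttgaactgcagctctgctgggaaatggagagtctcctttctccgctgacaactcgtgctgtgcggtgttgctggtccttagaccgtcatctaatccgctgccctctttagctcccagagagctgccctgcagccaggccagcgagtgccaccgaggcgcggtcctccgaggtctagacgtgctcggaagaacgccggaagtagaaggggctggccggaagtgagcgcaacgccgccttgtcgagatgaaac

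The libraries held 4367535 to 6074289 usable pairs 20 kb to 2 Mb apart, with the fewest in TGFB1. At least 200 contacts over the 4 libraries were found for 18285 promoters, both members among them. Of the 8 fibroblast markers (Col1a1, Col1a2, Col3a1, Pdgfra, Pdgfrb, Thy1, Vim and Twist2), 6 had more pair ends within 5 kb than the median promoter in Control. The exceptions were Col3a1 and Thy1, and the median over the list was 2.57 times that promoter. Of the 8, 5 lay within 2 kb of a 1-kb bin enriched in pair ends, where 44.6% of all promoters with at least 200 contacts did. Of the 6 lung epithelium, 3 endothelium and 3 leukocyte markers listed, 0 of those with enough contacts did, though Sftpc and Cd68 had more pair ends than the median promoter, 37.3 and 42.3 per 1000000 pairs in Control against 18.2. The median promoter had 30.1 contacts per 1000000 pairs in Control, 27.5 in TGFB1, 24.5 with TGFB1+miR-9-LOF and 24.8 with miR-9-LOF. As a share of the pairs of their library, contacts at promoters were thus lower in the 3 treated libraries. The fall was larger at the 8153 promoters with an enriched bin. There the median log2 ratio in TGFB1 over Control was -0.30, against -0.17 over all promoters. The density of pair ends within 2 kb of the TSS, over that of the surrounding 100 kb, was lower as well. Its median over promoters was 1.99 in Control, 1.80 in TGFB1, 1.58 with TGFB1+miR-9-LOF and 1.63 with miR-9-LOF. The part of this enrichment in the lower contacts was not tested. Values relative to the median promoter are therefore given beside those per 1000000.

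Gpc1 lies on chromosome 1 of GRCm38 from 92831645 to 92860779 on the plus strand (ENSMUSG00000034220.7). Its TSS carried the mark, with a 1-kb bin at 13.3 times the background (the mean of the chromosome or of the 100 kb around the bin, whichever was larger), and its 1630 contacts over the 4 libraries ranked 495th. Gpc1 had 476 contacts in Control, 423 in TGFB1, 373 with TGFB1+miR-9-LOF and 358 with miR-9-LOF. Per 1000000 pairs this was 78.4 in Control (95% Poisson interval 71.5 to 85.7), 96.9 in TGFB1 (87.8 to 106.5), 68.8 with TGFB1+miR-9-LOF (62.0 to 76.1) and 62.4 with miR-9-LOF (56.1 to 69.2). TGFB1 was the highest of the 4 libraries and its interval overlapped none of the others, while the intervals of both antagomiR libraries overlapped each other. All intervals cover counting error only, and a library is not a replicate. Gpc1 had 2.60 times the contacts of the median promoter in Control, 3.53 times in TGFB1, 2.81 times with TGFB1+miR-9-LOF and 2.52 times with miR-9-LOF.

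Rttn lies on chromosome 18 of GRCm38 from 88971790 to 89131016 on the plus strand (ENSMUSG00000023066.10). Its TSS also had an enriched bin, at 5.65 times the background, but with 289 contacts over the 4 libraries it ranked 16258th, near the bottom of the promoters counted. Rttn had 77 contacts in Control, 80 in TGFB1, 56 with TGFB1+miR-9-LOF and 76 with miR-9-LOF. Per 1000000 pairs this was 12.7 in Control (95% Poisson interval 10 to 15.8), 18.3 in TGFB1 (14.5 to 22.8), 10.3 with TGFB1+miR-9-LOF (7.80 to 13.4) and 13.3 with miR-9-LOF (10.4 to 16.6). The TGFB1 interval overlapped those of Control and miR-9-LOF and lay above that of TGFB1+miR-9-LOF. Rttn stayed below the median promoter in every library, at 0.421 times in Control, 0.667 times in TGFB1, 0.421 times with TGFB1+miR-9-LOF and 0.535 times with miR-9-LOF.

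**Figure D1:**
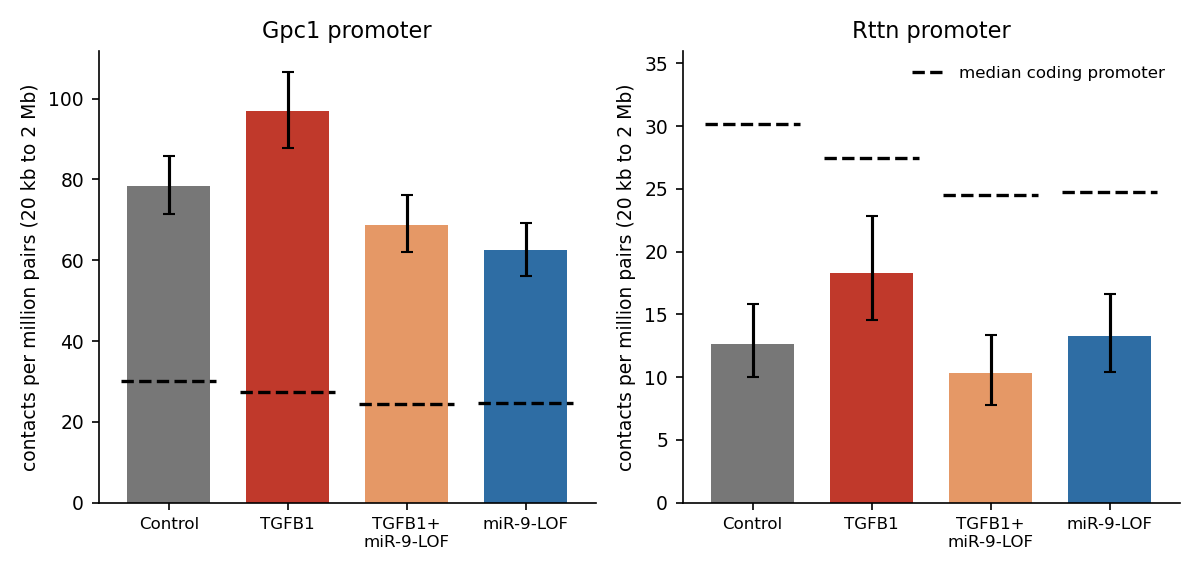
Contacts per 1000000 pairs 20 kb to 2 Mb apart (vertical axes, drawn to different scales) of the Gpc1 promoter (left) and the Rttn promoter (right) in each of the 4 libraries, with 95% Poisson intervals as error bars and the median coding promoter as a dashed line. TGFB1 is the highest library for both, at 96.9 for Gpc1 and 18.3 for Rttn, and Gpc1 lies above the dashed line in every library where Rttn lies below it.

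In TGFB1 over Control the log2 ratio of Gpc1 contacts was 0.31 (95% interval 0.11 to 0.50), and 0.47 (0.28 to 0.67) relative to the median promoter. Rttn had a log2 ratio of 0.53 (0.061 to 1.00), and 0.70 (0.23 to 1.17) relative to the median. Of the 2 members, 1 lay at least 0.5 (log2) above the median promoter, Rttn, where 5.26% of all promoters did and 0.760% lay as far below. Rttn ranked 205th from the top and Gpc1 1129th. The spread of this ratio was wider at promoters with few contacts. Among the 5095 promoters with 0.5 to 2 times the contacts of Gpc1, 0.177% had a ratio as high, and among the 9100 promoters so matched to Rttn 2.19% did. These shares describe how the members were picked and support nothing further.

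**Figure D2:**
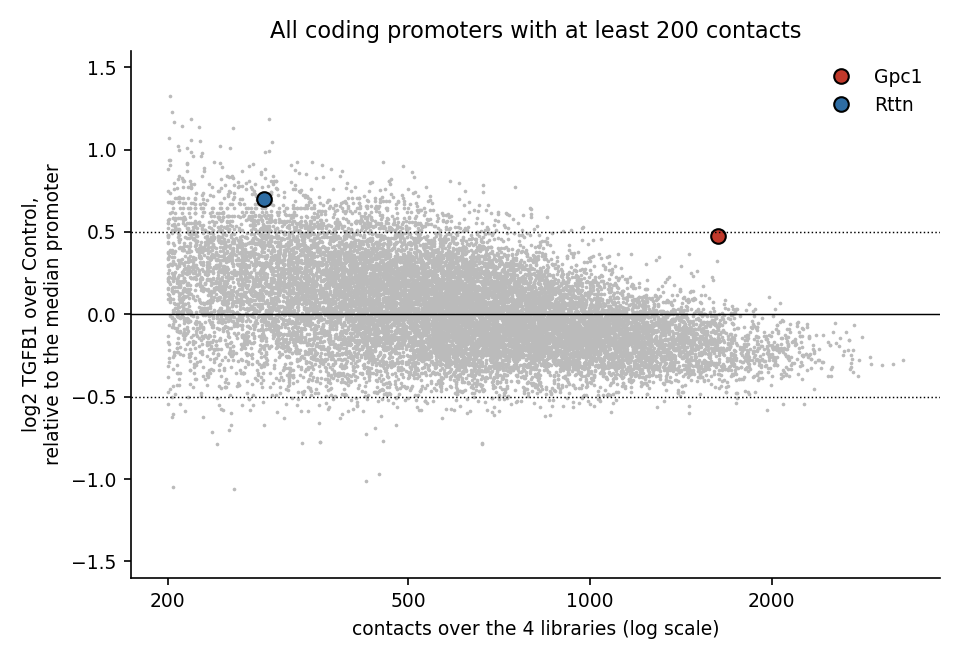
Log2 ratio of contacts in TGFB1 over Control, relative to the median coding promoter (vertical axis), against contacts over the 4 libraries (horizontal axis, log scale), with 1 grey point for each of 18285 promoters and dotted lines at 0.5 above and below the median. Gpc1, at 1630 contacts, lies at the upper edge of the promoters of its level, and Rttn, at 289 contacts, lies among more widely scattered ones.

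For TGFB1+miR-9-LOF over TGFB1 both ratios were below the median promoter. Gpc1 lay at -0.30 (95% interval -0.51 to -0.098) and Rttn at -0.64 (-1.16 to -0.12). The Gpc1 interval covered 0 with a window of 5 kb, at -0.21 (-0.46 to 0.045), and of 25 kb, at -0.079 (-0.24 to 0.083). Of all promoters, 2.11% lay at least 0.5 below the median, Rttn among them. This comparison shares the TGFB1 library with the one that chose the members, so a lower value in it is in part fixed by the choice. Relative to the promoters with an enriched bin, Gpc1 lay at -0.14 (-0.35 to 0.062) and Rttn at -0.475 (-0.99 to 0.036) there, and both intervals covered 0. In miR-9-LOF over Control, which shares the Control library, Gpc1 lay at -0.012 (-0.21 to 0.19) and Rttn at 0.38 (-0.096 to 0.86), neither of them among the 13.2% of promoters at least 0.5 above the median. Relative to the promoters with an enriched bin, the values were 0.23 (0.028 to 0.43) for Gpc1 and 0.62 (0.15 to 1.10) for Rttn, both above 0. The choice favours a low Control count, so a higher value in this comparison is also in part fixed by it. The comparison of TGFB1+miR-9-LOF with miR-9-LOF used neither library of the choice. Gpc1 lay at 0.18 (-0.036 to 0.39) and Rttn at -0.32 (-0.85 to 0.19), both intervals covered 0, and neither was among the 1.26% of promoters at least 0.5 below the median. Relative to the promoters with an enriched bin, Gpc1 lay at 0.23 (0.015 to 0.44) in contacts and at 0.22 (0.032 to 0.40) in pair ends within 5 kb, both above 0, and Rttn at -0.27 (-0.80 to 0.24) in contacts. The pair ends of Gpc1 include ends of its contacts. Relative to the median promoter they lay at 0.14 (-0.049 to 0.32), which covered 0. Whether the interval of Gpc1 covered 0 thus turned on the reference promoters, and for Rttn a difference was not detectable at this depth under either.

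Pair ends within 5 kb of the TSS, from pairs of any distance, count the precipitated DNA at the promoter itself. They include ends of the contacts that chose the members, so they are not a separate measure. At Gpc1 the density of ends within 2 kb, over the surrounding 100 kb, was 6.96 in Control and 6.51 in TGFB1. With TGFB1+miR-9-LOF it was 4.46, and with miR-9-LOF 4.41. At Rttn it was 4.34, 3.21, 2.29 and 2.32 in the same order of libraries. Gpc1 had 714 ends in Control, 555 in TGFB1, 478 with TGFB1+miR-9-LOF and 477 with miR-9-LOF, which is 51.5, 56.3, 37.4 and 35.4 per 1000000 pairs. On that scale the TGFB1 and Control libraries were above both antagomiR libraries, but relative to the promoters with an enriched bin the ends of Gpc1 lay at 0.19 (95% interval 0.020 to 0.36) in miR-9-LOF over Control and at -0.078 (-0.26 to 0.10) in TGFB1+miR-9-LOF over TGFB1. Both comparisons share a library with the choice. In TGFB1 over Control the log2 ratio was 0.13 (-0.034 to 0.29) per 1000000 and 0.33 (0.16 to 0.49) relative to the median promoter, where 6.54% of promoters lay at least 0.5 above. Rttn had 155 ends in Control, 109 in TGFB1, 95 with TGFB1+miR-9-LOF and 106 with miR-9-LOF, or 11.2, 11.1, 7.43 and 7.87 per 1000000. Control and TGFB1 were nearly equal for Rttn, and the value relative to the median was 0.18 (-0.19 to 0.54). Within 10 kb, Rttn had 36.5 contacts for every 100 ends in Control, 51.6 in TGFB1, 36.6 with TGFB1+miR-9-LOF and 49.0 with miR-9-LOF. For Gpc1 the range was narrower, from 47.9 to 52.7, and the median promoter had 40.8 to 42.5.

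The near ends of the contacts were placed along the 20-kb window. Within 2 kb of the TSS lay 301 of the 476 Gpc1 contacts in Control (63.2%), 240 in TGFB1 (56.7%), 202 with TGFB1+miR-9-LOF (54.2%) and 194 with miR-9-LOF (54.2%). For Gpc1, TGFB1 over Control was above 0 in all parts of the window, with a log2 ratio per 1000000 pairs of 0.71 (95% interval 0.25 to 1.18) for near ends 2 to 10 kb upstream, 0.15 (-0.10 to 0.40) within 2 kb and 0.40 (-0.016 to 0.82) 2 to 10 kb downstream. No contact had its near end 2 to 4 kb or 5 to 6 kb downstream of the Gpc1 TSS in any library, and the genome has 0 MboI sites there. Rttn had 41 near ends within 2 kb in Control, 35 in TGFB1, 18 with TGFB1+miR-9-LOF and 34 with miR-9-LOF. In the same 3 parts its log2 ratios in TGFB1 over Control were 0.93 (0.019 to 1.86) upstream, 0.25 (-0.45 to 0.93) within 2 kb and 0.64 (-0.39 to 1.67) downstream. At both promoters the ratio was thus highest upstream of the 4 kb around the TSS, though the intervals of the 3 parts overlapped. The windows hold 47 MboI sites at Gpc1 and 37 at Rttn, and other starts as well, an antisense RNA (Gm29481) 6.25 kb inside Gpc1 and Mir6359 0.24 kb inside Rttn, whose contacts cannot be told apart from those of the 2 genes.

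**Figure D3:**
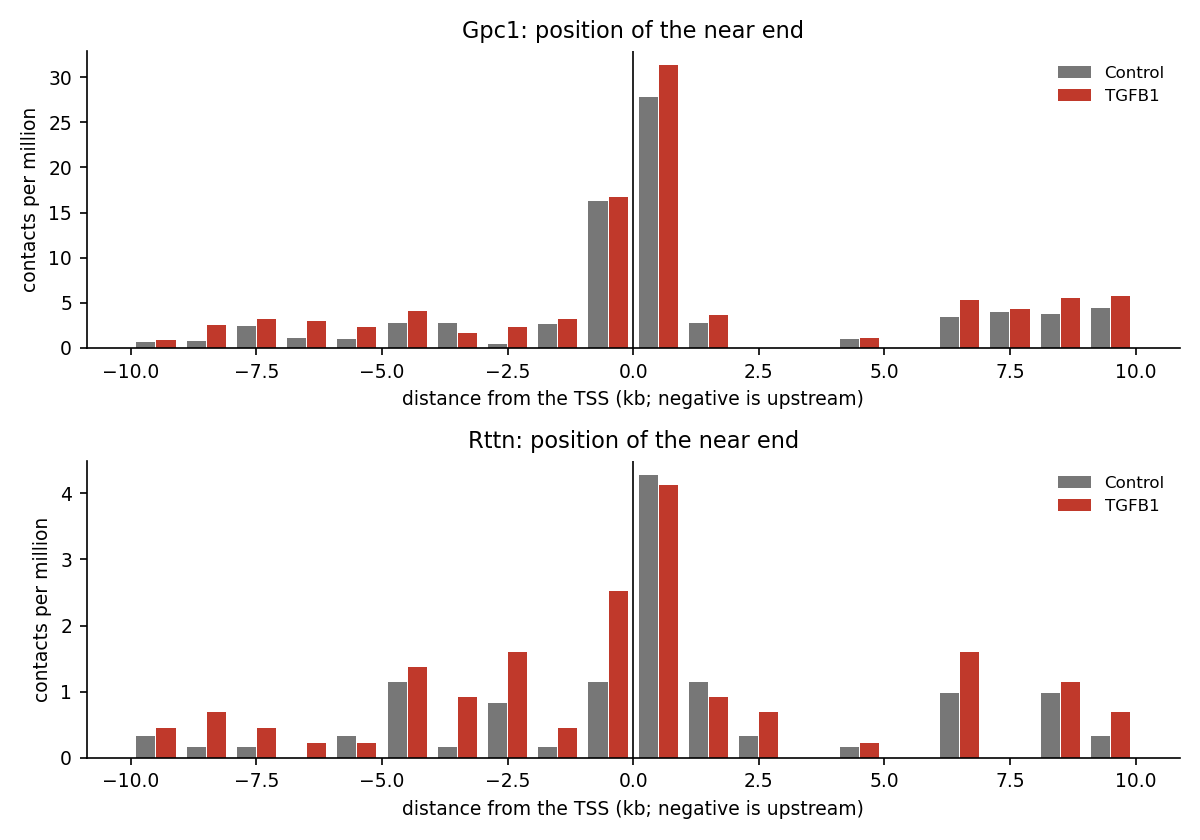
Contacts per 1000000 pairs (vertical axes) by the position of their near end in 1-kb steps from the TSS (horizontal axes, in kb) for Gpc1 (top) and Rttn (bottom) in Control (grey) and TGFB1 (red). Both peak at the TSS, and at Gpc1 the steps without an MboI site, 2 to 4 kb and 5 to 6 kb downstream, are empty.

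The contacts of Gpc1 went mostly upstream, into the stretch without coding genes between Gpc1 and Otos. Upstream partners made up 343 of 476 contacts in Control, 331 of 423 in TGFB1, 279 of 373 with TGFB1+miR-9-LOF and 265 of 358 with miR-9-LOF. TGFB1 over Control gave a log2 ratio of 0.42 (95% interval 0.20 to 0.65) for upstream and -0.056 (-0.46 to 0.34) for downstream partners. By distance, pairs 100 to 200 kb apart made up 35.1% of the contacts of Gpc1 in Control and 35.0% in TGFB1, where over all promoters they made up 20.1% in both. For all promoters the distance ran from the TSS to the partner, which differs from that between the ends by at most 10 kb. Of the upstream bands, 20 to 50 kb had the highest ratio, with 48 pairs in Control and 67 in TGFB1, a log2 ratio of 0.96 (0.40 to 1.52), and 50 with TGFB1+miR-9-LOF and 43 with miR-9-LOF. In the same band downstream there were 25 pairs in Control and 10 in TGFB1, a log2 ratio of -0.85 (-2.07 to 0.26). Partners 50 to 100 kb upstream numbered 80 in Control, 71 in TGFB1, 43 with TGFB1+miR-9-LOF and 51 with miR-9-LOF, so the antagomiR libraries were lowest there. Partners 200 to 500 kb upstream numbered 31 in Control, 37 in TGFB1, 35 with TGFB1+miR-9-LOF and 36 with miR-9-LOF, a log2 ratio of 0.73 (0.0030 to 1.47) in TGFB1 over Control. Beyond 200 kb, each band had fewer than 60 pairs in every library and a ratio whose interval covered 0 when both sides were added up.

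Control contacts of Gpc1 scaled to the TGFB1 depth came to 342.3, so the TGFB1 library had 80.8 pairs above them. Of 205 partner bins of 10 kb with a pair in any library, 82 were higher in TGFB1 than in the scaled Control, 76 were lower and the rest had a pair in neither, with 166.7 pairs above the scaled Control and 86.0 below. The 5 bins with the largest excess began 50, 30, 180, 70 and 140 kb upstream of the TSS. The bin 50 kb upstream held 11 pairs in Control, 21 in TGFB1, 10 with TGFB1+miR-9-LOF and 20 with miR-9-LOF, and the bin 30 kb upstream held 13, 20, 23 and 13. In the bin 180 kb upstream there were 13, 17, 9 and 6 pairs, in the bin 70 kb upstream 19, 21, 8 and 8, and in the bin 140 kb upstream 18, 20, 15 and 11. None of these 5 bins holds the start of an annotated gene, a coding gene body or an enriched 1-kb bin. Together they held 99 of the 423 TGFB1 pairs, 23.4% (95% Wilson interval 19.6 to 27.7), and 45.8 of the 80.8 pairs of excess. Without them the log2 ratio per 1000000 pairs was 0.16 (-0.051 to 0.38). They were picked for their excess, so that value had to fall.

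Partners within 250 kb that carried the mark held none of the excess of Gpc1 when added up. Of 46 bins in that range, 4 held an enriched 1-kb bin. They hold starts of Cops9 and Otos upstream, of Ankmy1, Dusp28 and Rnpepl1 downstream, and of Capn10, which encodes a calpain protease, further downstream. The TSS of Cops9, Dusp28 and Capn10 lay within 2 kb of an enriched 1-kb bin, and those of Otos, Ankmy1 and Rnpepl1 did not. The 4 bins shared 47 pairs with the Gpc1 window in Control, 32 in TGFB1, 29 with TGFB1+miR-9-LOF and 35 with miR-9-LOF. TGFB1 over Control gave a log2 ratio of -0.079 (95% interval -0.77 to 0.60). In Control and TGFB1, the bin 70 kb downstream held 10 and 13 pairs, and that 100 kb downstream 13 and 6. The bin 200 kb upstream held 7 and 1, and that 190 kb upstream 17 and 12. Further out the order differed at the bin 360 kb upstream, which holds the marked start of Ndufa10, a subunit of respiratory complex I, and had 1 pair in Control, 7 in TGFB1, 0 with TGFB1+miR-9-LOF and 1 with miR-9-LOF. Over the whole range, the 15 bins with a marked coding start held 50 pairs in Control, 44 in TGFB1, 30 with TGFB1+miR-9-LOF and 34 with miR-9-LOF, or a log2 ratio of 0.29 (-0.33 to 0.91), close to the 0.31 of all Gpc1 contacts. Pairs within 10 kb of both TSS numbered 32, 26, 24 and 22 for Otos, 26, 22, 13 and 16 for Ankmy1, and 24, 13, 19 and 21 for Cops9, in the order of the libraries used above. These are raw counts, and the TGFB1 library has 0.719 times the pairs of Control. Scaled to depth, TGFB1 differed from Control by a log2 ratio of 0.18 (95% interval -0.63 to 0.97) for Otos, 0.23 (-0.65 to 1.11) for Ankmy1 and -0.41 (-1.51 to 0.62) for Cops9, and all 3 intervals covered 0. The window of Dusp28, a marked start 75.3 kb downstream, shared 19, 22, 13 and 12 pairs with that of Gpc1, also as raw counts. The windows of Dusp28 and Ankmy1 overlap and share pairs, as do those of Otos and Cops9.

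**Figure D4:**
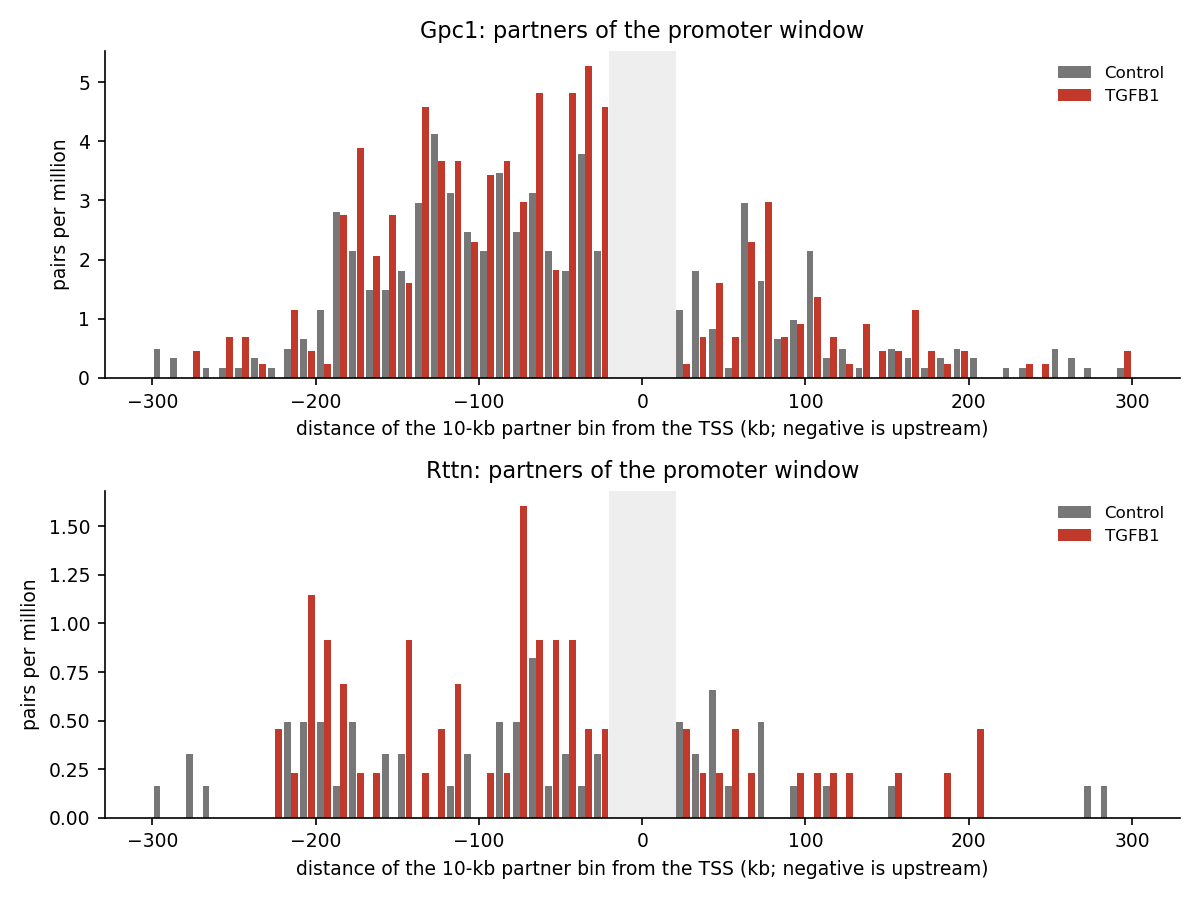
Pairs per 1000000 (vertical axes) between the promoter window and each 10-kb partner bin by its distance from the TSS in kb (horizontal axes, negative is upstream), for Gpc1 (top) and Rttn (bottom) in Control (grey) and TGFB1 (red), with the range within 20 kb shaded. The Gpc1 contacts fill the 200 kb upstream of the TSS, and the tallest TGFB1 bar of Rttn, 7 pairs against 3 in Control, is the bin 80 kb upstream.

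Rttn had too few pairs for most single bins to be read, with at most 5 pairs in a bin in Control and 7 in TGFB1. Its TGFB1 contacts exceeded the scaled Control, 55.4, by 24.6 pairs, over 100 bins of which 38 were higher in TGFB1 and 29 lower. In 2 bins at least 5 TGFB1 pairs came with an excess. The bin 80 kb upstream held 3 pairs in Control, 7 in TGFB1, 3 with TGFB1+miR-9-LOF and 3 with miR-9-LOF, and the bin 210 kb upstream held 3, 5, 1 and 2. The first holds the starts of 6 Socs6 transcripts, 4 of them coding, 77.5 kb upstream of Rttn, and a 1-kb bin enriched 9.43 times. Socs6 encodes a member of the suppressor of cytokine signalling family, which restrains receptor signalling. The 5′ end of the whole Socs6 gene, which stood for its TSS in the counts over all promoters, lies nearer, 44.3 kb upstream, and has no enriched bin within 2 kb. Pairs within 10 kb of both the Rttn TSS and those marked Socs6 starts numbered 5 in Control, 8 in TGFB1, 4 with TGFB1+miR-9-LOF and 5 with miR-9-LOF, a log2 ratio of 1.15 (95% interval -0.64 to 3.11) in TGFB1 over Control. The 8 pairs were the highest of the 4 libraries, and the interval covered 0. The only other marked partner bin within 250 kb, 150 kb upstream, held 2, 4, 1 and 1 pairs. It holds the start of a processed pseudogene (AC118614.1), and both marked bins together held 5, 11, 4 and 4 pairs, with a log2 ratio of 1.61 (-0.029 to 3.49).

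Without the 2 bins the log2 ratio of Rttn per 1000000 pairs was 0.41 (95% interval -0.088 to 0.91). As at Gpc1, the bins were picked for their excess, so the value had to fall. Upstream partners numbered 51 in Control, 60 in TGFB1, 36 with TGFB1+miR-9-LOF and 49 with miR-9-LOF, and downstream ones 26, 20, 20 and 27. Scaled to depth, TGFB1 over Control gave a log2 ratio of 0.71 (0.15 to 1.28) upstream and 0.097 (-0.82 to 0.99) downstream. By distance, the higher TGFB1 count lay at 100 to 200 kb, with 15 pairs in Control, 27 in TGFB1, 11 with TGFB1+miR-9-LOF and 21 with miR-9-LOF, a log2 ratio of 1.32 (0.36 to 2.34). This band made up 19.5% of the Rttn contacts in Control and 33.8% in TGFB1. From 500 kb to 1 Mb there were 9, 3, 2 and 9 pairs. TGFB1 over Control gave a log2 ratio of -1.11 (-3.63 to 0.89) there, and the interval covered 0. With both sides added up, the band from 100 to 200 kb gained most pairs at both promoters, from 27.5 per 1000000 in Control to 33.9 in TGFB1 at Gpc1 and from 2.47 to 6.18 at Rttn. At Gpc1 this was a log2 ratio of 0.30 (-0.027 to 0.63), close to the 0.31 of all its contacts, and the interval covered 0. At Gpc1 the band from 20 to 50 kb came next, with 73 pairs in Control and 77 in the shallower TGFB1 library, a log2 ratio of 0.55 (0.072 to 1.03).

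**Figure D5:**
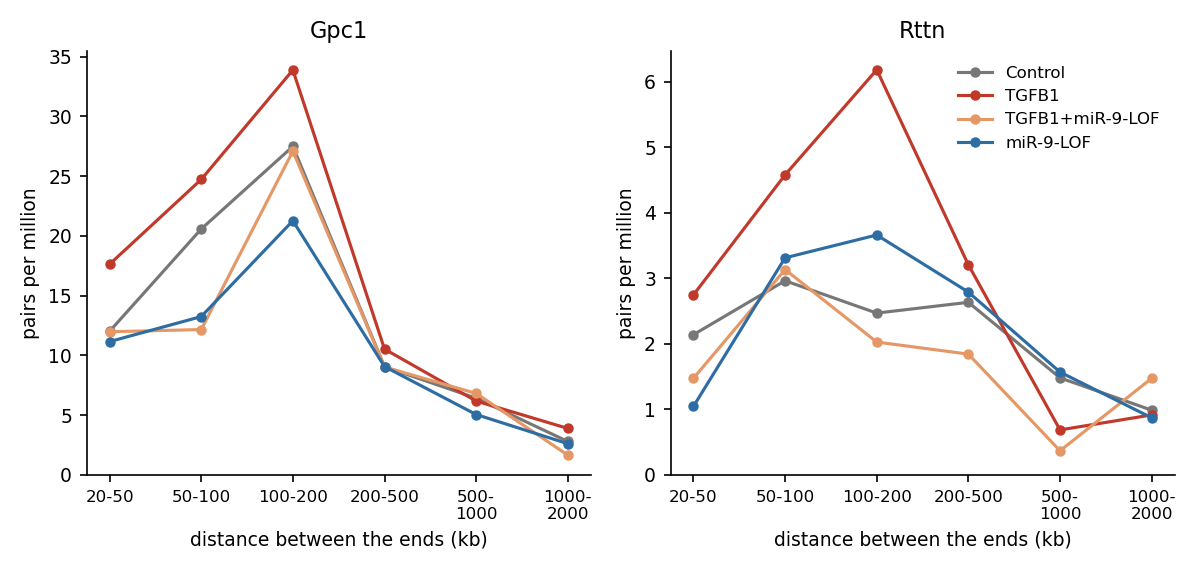
Pairs per 1000000 (vertical axes, drawn to different scales, without error bars) by the distance between their ends in kb (horizontal axes, 6 bands) for Gpc1 (left) and Rttn (right) in the 4 libraries. The TGFB1 library is the highest up to 500 kb at both promoters, and the Rttn points stand on 2 to 27 pairs each.

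Pairs beyond the range that chose the members, over 2 Mb apart or to other chromosomes, were at no higher level in TGFB1 on their own scale. Unlike the contacts, they were not set against the median promoter. Per 1000000 pairs of their kind, Gpc1 had 61.9 pairs to other chromosomes in Control, 53.8 in TGFB1, 43.9 with TGFB1+miR-9-LOF and 40.8 with miR-9-LOF. Rttn had 16.5, 12.8, 15.4 and 13.9 of these. Pairs over 2 Mb apart came to 49.1, 44.0, 40.6 and 38.1 per 1000000 at Gpc1 and to 20.0, 12.1, 14.3 and 9.25 at Rttn. TGFB1 over Control gave a log2 ratio of -0.20 (95% interval -0.61 to 0.20) for other chromosomes and -0.16 (-0.58 to 0.26) beyond 2 Mb at Gpc1, and -0.37 (-1.24 to 0.46) and -0.72 (-1.51 to 0.023) at Rttn. Pairs under 20 kb did go with the contacts at Gpc1, where they numbered 128, 131, 88 and 114, with a log2 ratio of 0.40 (0.040 to 0.77). Rttn had 27, 22, 14 and 14, a log2 ratio of 0.075 (-0.81 to 0.94).

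The surroundings of the 2 promoters were unlike each other. Within 1 Mb of Gpc1, outside its own window, lay 3379 pair ends per 1000000 pairs in Control, 3394 in TGFB1, 3280 with TGFB1+miR-9-LOF and 3063 with miR-9-LOF, so TGFB1 and Control differed by a log2 ratio of 0.0064 (95% interval -0.014 to 0.027). Nearer by, 38 of the 46 bins of 10 kb within 250 kb of Gpc1 had more pair ends per 1000000 in TGFB1 than in Control, with a median log2 ratio of 0.18, and 24 of the 46 around Rttn, with a median of 0.044. With TGFB1+miR-9-LOF, 34 of the 46 bins around Gpc1 were also above Control, with a median of 0.16, and with miR-9-LOF 31 were, with a median of 0.048. Around Rttn 33 and 30 of the 46 were, with medians of 0.21 and 0.15. The share over all 10-kb bins of the genome was not counted, so these numbers do not set either region apart. With TGFB1+miR-9-LOF the contacts of Gpc1 were below Control per 1000000 pairs, at 68.8 against 78.4. Relative to the median promoter they were above it, at 2.81 against 2.60 times. The contacts of Gpc1 are in part counted in this coverage, and its part in them was not tested. Around Rttn lay 617.6, 670.2, 739.3 and 791.8, a rise in all 3 treated libraries, with log2 ratios to Control of 0.12 (0.071 to 0.16) in TGFB1 and 0.36 (0.32 to 0.40) with miR-9-LOF. From Control to miR-9-LOF the coverage around Rttn was thus higher. Its contacts per 1000000 differed by 0.064 (-0.41 to 0.54) in log2, an interval that covered 0. From TGFB1 to TGFB1+miR-9-LOF the coverage was higher, by 0.14 (0.096 to 0.19) in log2, and the contacts lower. The part of coverage in the contacts was not tested. Of 61 coding neighbours within 2 Mb of Gpc1, 58 had enough contacts, and their median in TGFB1 over Control, relative to the median promoter, was 0.13. Of the 23 of these within 500 kb, 19 lay above the median promoter, with a median of 0.17. Of the 58, 2 lay at least 0.5 above, where 5.26% of all promoters did. They were Aqp12, a water channel, at 0.51 and Pdcd1, an inhibitory receptor of T cells, at 0.69. The nearest coding genes were Otos at 0.17 (-0.034 to 0.38) and Ankmy1 at 0.053 (-0.20 to 0.30). Gpc1, at 0.47, was chosen on this ratio, so its place above them describes the choice. Rttn had 6 coding neighbours, of which Socs6 alone had enough contacts, at 0.38 (-0.20 to 0.95). Cd226, an adhesion receptor of lymphocytes and the nearest gene downstream, had 33 contacts in Control and 37 in TGFB1 and was below the minimum.

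The other heparan sulfate genes lay, as a list, near the median promoter. Of 26 listed core proteins, chain builders and modifying enzymes, 25 had enough contacts, and their median relative to the median promoter was -0.077 in TGFB1 over Control. Sdc3, a syndecan core protein, lay at 0.63 (95% interval 0.21 to 1.05), with 97 contacts in Control and 96 in the shallower TGFB1 library, and was the 1 gene at least 0.5 above, where 5.26% of all promoters lay, and 0 lay as far below. For TGFB1+miR-9-LOF over TGFB1 the list had a median of -0.092. Hs2st1, a sulfotransferase of the chain, lay at -0.52 (-0.82 to -0.23), where 2.11% of all promoters lay at least 0.5 below, and Sulf1, a sulfatase that removes such groups, at 0.92 (0.44 to 1.42), where 5.09% lay as far above. In miR-9-LOF over Control the list had a median of -0.11, with Gpc3, a glypican, at 0.51 and Sulf1 at 0.54, where 13.2% of all promoters lay at least 0.5 above. The glypican Gpc6 at -0.65, the syndecan Sdc1 at -0.62 and Ext1, a polymerase of the chain, at -0.53 were among the 5.87% at least 0.5 below.

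All 22 listed centriole genes had enough contacts, and 19 of the 22 had an enriched bin, where 44.6% of all promoters with enough contacts did. The median of the 22 in TGFB1 over Control was -0.21, against -0.13 for the promoters with an enriched bin, both relative to the median promoter. The list had 0 genes at least 0.5 above and 1 as far below, where 5.26% and 0.760% of all promoters lay. That was Plk4, the kinase that starts centriole duplication, at -0.53 (-0.85 to -0.21), with 266 contacts in Control, 118 in TGFB1, 134 with TGFB1+miR-9-LOF and 134 with miR-9-LOF. Rttn, at 0.70, was chosen on this comparison, so its place above the highest of them, at 0.21, describes the choice. In miR-9-LOF over Control the list had a median of -0.28 against -0.24 for the promoters with an enriched bin, and 4 genes were among the 5.87% of promoters at least 0.5 below, Poc1b at -0.86 and Sass6, which builds the centriole cartwheel, at -0.78, with Plk4 at -0.59 and Cep120 at -0.52. In TGFB1+miR-9-LOF over miR-9-LOF, 0 genes of either list lay at least 0.5 below, near the 1.26% of all promoters that did.

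The promoters most like Gpc1 over the 4 libraries, by the distance between their log2 values relative to the median, were Slc35e4 at 0.26, Pdk2 at 0.29, Naglu at 0.31, Nectin1 at 0.32 and Brpf3 at 0.33, of 5060 promoters with at least 0.5 times its contacts and more than 2 Mb away. Slc35e4 had 2.84, 3.46, 2.40 and 2.60 times the contacts of the median promoter. Among those most like Rttn, of 18283, were Ceacam20 at 0.17, Sprr3 at 0.22, and Ei24 and Mmp13 at 0.27. Ceacam20 had 0.448, 0.650, 0.459 and 0.563 times the contacts of the median promoter. A likeness over 4 libraries is a description only.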

How the data were processed

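The authors aligned the reads to mm10 and filtered them with HiC-Pro (per the labels and the study's methods, no version given in the sources used here), and deposited lists of valid pairs, 1 line per pair, with the position, strand, MboI fragment and mapping quality score of both ends. Fragment numbers were checked against GRCm38, and at least 99.94% of the ends around the members fell on that fragment or the next. By position, no 2 libraries had more than 0.0083% of their pairs in common. Counting used pandas 2.3.3, numpy 2.4.6, statsmodels 0.14.6 and scipy 1.17.1 in Python 3.11.15, and plots matplotlib 3.10.9. A TSS is the 5′ end of a GENCODE M21 gene. Both ends of a pair had a mapping quality score of 30 or more. Contacts were scaled to 1000000 pairs 20 kb to 2 Mb apart, and pair ends to 1000000 pairs of any kind. Bins of 1 kb were called enriched on the 4 libraries thinned to equal depth and pooled (Poisson, false discovery rate 0.01, at least 4-fold). Intervals of counts are exact Poisson and those of ratios exact conditional (Clopper-Pearson), at 95%. With 1 library per condition no test between conditions was made. Members, gene lists and the choice of alternatives followed earlier results of these data. The genes named are the members, the genes in or beside their leading partner bins, their nearest coding neighbours, the 5 most similar promoters and list members past 0.5 (log2), and the neighbours past it, Capn10, Ndufa10, Dusp28, Rnpepl1 and the Socs6 starts were added after their values were seen. Of the promoters most similar to Rttn, 1 is not reported here. The counting was tested on simulated data. Alternatives changed the mapping quality, windows, distances, fragments, reference promoters, count minimum and bin size.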

Additional observations from a re-analysis of the deposited data

Results flagged for a closer look

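The contacts of Rttn were picked out because 1 comparison had values of opposite sign in 2 settings. TGFB1 over its reference was 0.70 (log2 relative to the median promoter) without the miR-9 antagomiR, TGFB1 over Control, and -0.32 with it, TGFB1+miR-9-LOF over miR-9-LOF. The antagomiR over its reference was 0.38 without TGFB1, miR-9-LOF over Control, and -0.64 with it, TGFB1+miR-9-LOF over TGFB1. The intervals of the 0.38 (-0.096 to 0.86) and of the -0.32 (-0.85 to 0.19) covered 0. Before the median promoter was taken off, the 0.38 was 0.064. The 2 pairs of values come from the same 4 counts, 77, 80, 56 and 76, with 1 library for each condition. The difference between settings was not tested, and the member was chosen on the first of these values.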

How the results depend on the processing

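Of 151 alternative values, 116 moved by less than the counting error (for counts, by less than 1.5 times), and 8 of these changed sign close to 0, 3 for Gpc1 contacts in miR-9-LOF over Control and 5 for Rttn pair ends. In TGFB1 over Control, on which both members were chosen, Gpc1 contacts ranged from 0.28 to 0.60 over the 10 alternatives. These come from the same libraries, so lying above 0 in all of them was in part fixed by the choice. The lowest, for pairs 500 kb to 2 Mb apart, had an interval of -0.32 to 0.88. Rttn was above 0 in 9 of 10 and turned to -0.47 for pairs 500 kb to 2 Mb apart, and its TGFB1+miR-9-LOF over TGFB1 value to 0.32, on few pairs. Pair ends of Gpc1 in TGFB1 over Control came to 0.63 from pairs at most 20 kb apart. Pair ends of Rttn moved further. In miR-9-LOF over Control they went as low as -1.14, against -0.12 (-0.49 to 0.25) in the main setting. In TGFB1+miR-9-LOF over miR-9-LOF they went as high as 1.07, against -0.024 (-0.44 to 0.39). Gpc1 contacts in TGFB1+miR-9-LOF over TGFB1 came to -0.079 in a 25-kb window, and in miR-9-LOF over Control to 0.23 relative to enriched promoters and to -0.33 without a median. The number of promoters past 0.5 moved with the count minimum and the window, and the cause was not tested. With a minimum of 400 contacts, none, a 5-kb or a 25-kb window, 436, 1535, 1946 and 223 lay above in TGFB1 over Control and 41, 376, 438 and 12 below. Below in TGFB1+miR-9-LOF over TGFB1 lay 155, 669, 1008 and 56, and in TGFB1+miR-9-LOF over miR-9-LOF 59, 817, 573 and 74. Above in miR-9-LOF over Control lay 1277, 3589, 3385 and 1538, against 2405. The share of TGFB1 pairs in the leading partner bins was 13.5% with 5-kb and 38.5% with 20-kb bins at Gpc1, and 7.5% and 40.0% at Rttn, as the width of the bins sets. No paired analysis was possible because each condition has 1 library. The 289 contacts of Rttn limit what can be read from it.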
